A study of Mus musculus with 6 samples.

Results

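The epidermal barrier lipid genes described here are *Alox12b*, *Aloxe3*, *Abca12*, *Cers3*, *Elovl1*, *Elovl4*, *Pnpla1*, *Sdr9c7* and *Ugcg*, 9 of the 56262 genes counted in fetal mouse leg muscle. They were picked by name as genes of the ceramide pathway of skin, and the choice was made with their difference between WT and *SYISL* KO samples already known. That difference is therefore given below as a description: no p-value is given for these 9 genes, and nothing is read from how many of them passed the threshold used for all genes. Leg muscle was taken at embryonic day 18.5 from WT and KO fetuses, with 3 samples of each genotype. Each group was bred from parents that both had the genotype of the fetuses, so that fetal genotype, maternal genotype and litter cannot be told apart. *SYISL* is a long noncoding RNA studied in muscle, the KO fetuses lack it, and the WT mice came from the animal center of the authors' university. The strain, the sex of the fetuses, the number of litters and whether a sample holds 1 fetus or a pool are not given in the sources used here, and p-values measure only the spread between these samples. The annotation used names no gene *SYISL*, so its deletion was not checked here.

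The outermost layer of skin is kept watertight by stacked sheets of ceramides, cholesterol and free fatty acids between dead, cross-linked keratinocytes. Its hallmark lipids are acylceramides, in which a very long fatty acid carries a linoleic acid ester at its far end. The fatty acid is lengthened by ELOVL1 and ELOVL4, joined to a sphingoid base by CERS3, esterified with linoleate by PNPLA1, glucosylated by UGCG, loaded into lamellar bodies by the transporter ABCA12, and after secretion oxidized in turn by ALOX12B, ALOXE3 and SDR9C7 before it is bound to the cornified envelope. Inherited loss of several of these enzymes causes ichthyosis, and the fetal mouse acquires a working barrier in the last days before birth. None of this is a known task of muscle fibers, although ELOVL1 and UGCG act in many cell types.

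All 9 genes had lower CPM (counts relative to the scaled library size) in every KO sample than in any WT sample. The fall was steepest for *Cers3*, whose KO mean was 3.25% of the WT mean, and for *Abca12*, at 3.92%. *Sdr9c7*, *Alox12b*, *Pnpla1* and *Elovl4* kept between 4.94% and 7.39% of the WT mean, *Aloxe3* kept 17.9% and *Elovl1* 23.3%. *Ugcg*, the enzyme that begins the synthesis of all glucosylceramides, kept 71.8%. DEGs were defined by a fold change over 1.5 together with an adjusted p under 0.05 in the quasi-likelihood test of edgeR, corrected over 22071 genes by the Benjamini-Hochberg method. By that rule 8 of the 9 genes were called lower in KO and 0 higher, beside 8.39% of all tested genes called lower and 8.31% called higher. These calls were fixed by the choice of the genes and are no evidence of a difference. *Ugcg* was not called, since its fold change of 1.39 was under the threshold. With a fold change over 2, 8 of the 9 genes were again called lower (5.75% of all genes lower, 3.51% higher), and with no fold threshold all 9 were (23.1% lower, 21.9% higher). Across all tested genes, 28.5% had every KO sample below every WT sample. In bulk samples, fewer cells of a type and less RNA per cell cannot be told apart.

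**Figure D1:**
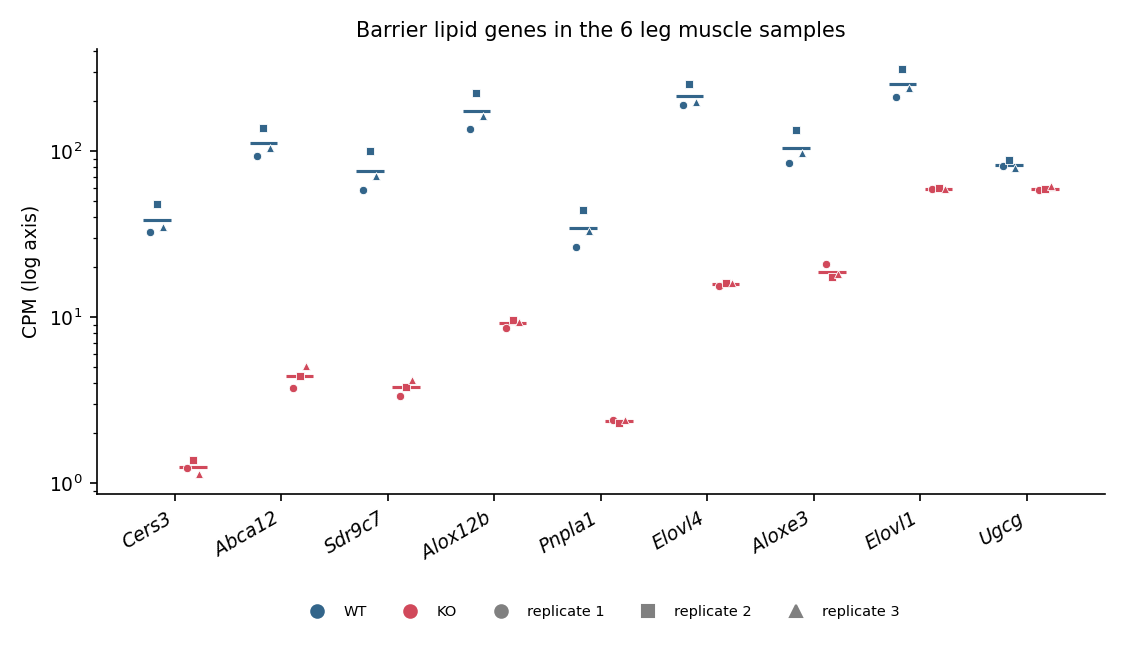
CPM (log axis) of the 9 barrier lipid genes in each leg muscle sample, with WT in blue, KO in red, the replicate number by symbol and the mean of 3 samples as a bar. Every red point lies below every blue point of the same gene, the gap is widest for *Cers3* at the left (38.6 against 1.25 CPM on average) and narrowest for *Ugcg* at the right (83.1 against 59.6 CPM).

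The DNA before 4 of these genes is shown because it spans the range of the differences in expression: *Cers3* with the largest fall, *Sdr9c7* and *Elovl4* with falls in between, and *Elovl1* with the smallest fall among the genes called. The sequences are the 200 bases before the start of the gene or of its RefSeq transcript, from the RefSeq promoter table on GRCm38.p6, the assembly of mm10, written 5′ to 3′ in the direction of transcription. They lie at chr7:66743304-66743503 (plus strand, *Cers3*), chr10:127898318-127898517 (plus strand, *Sdr9c7*), chr4:118427893-118428092 (plus strand, *Elovl1*) and chr9:83806306-83806505 (minus strand, *Elovl4*). Capitals mark matches on either strand to the TATA box TATAAA, the CCAAT box, the GC box GGGCGG of the Sp and KLF factors (CCGCCC when on the opposite strand) or the nuclear receptor motif AGGTCA.
Cers3: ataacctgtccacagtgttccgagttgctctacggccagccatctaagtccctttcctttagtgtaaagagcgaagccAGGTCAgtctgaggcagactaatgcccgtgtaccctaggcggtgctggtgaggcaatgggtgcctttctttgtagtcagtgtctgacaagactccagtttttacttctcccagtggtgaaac
Sdr9c7: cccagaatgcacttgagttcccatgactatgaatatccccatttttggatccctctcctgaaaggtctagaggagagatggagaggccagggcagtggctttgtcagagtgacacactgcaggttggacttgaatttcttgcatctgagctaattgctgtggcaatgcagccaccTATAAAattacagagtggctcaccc
Elovl1: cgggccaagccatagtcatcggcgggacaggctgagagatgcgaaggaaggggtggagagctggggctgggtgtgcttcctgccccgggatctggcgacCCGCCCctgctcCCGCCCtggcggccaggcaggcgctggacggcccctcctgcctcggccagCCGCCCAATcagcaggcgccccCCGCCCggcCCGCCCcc
Elovl4: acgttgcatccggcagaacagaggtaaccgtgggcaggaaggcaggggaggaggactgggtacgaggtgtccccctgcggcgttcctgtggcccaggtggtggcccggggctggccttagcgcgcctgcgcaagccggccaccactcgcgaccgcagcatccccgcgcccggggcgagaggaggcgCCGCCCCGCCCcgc

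The 4 upstream regions differed in base composition. Over the 250 bases before the RefSeq start, GC content was 49.6% for both *Cers3* and *Sdr9c7*, 72.0% for *Elovl1* and 69.6% for *Elovl4*, against a median of 52.4% over 32851 mouse promoters. The CpG content, as the ratio of observed to expected CpG, was 0.390 for *Cers3*, 0.130 for *Sdr9c7*, 0.556 for *Elovl1* and 0.828 for *Elovl4* (median of all promoters, 0.373). *Elovl1* held 5 GC boxes, one of which overlaps its CCAAT box, and *Elovl4* held 2 that overlap each other, whereas neither *Cers3* nor *Sdr9c7* held one. *Sdr9c7* had a TATA box and *Cers3* a nuclear receptor motif. *Alox12b*, at 66.0% GC, also held GC boxes, and *Abca12* (53.2%) and *Pnpla1* (54.0%) had CpG ratios of 0.287 and 0.299.

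For 7 of the 9 genes such a window of 250 bases could be searched on both strands, and 83 of these bases for *Alox12b* and 17 for *Sdr9c7* lie inside the annotated gene. No entry for *Aloxe3* was used, and the window of *Ugcg* lay within the annotated gene. The GC box was found in 3 of the 7 and in 32.7% of all promoters. CCAAT was found in 2 of the 7 (33.8% of all), TATAAA in 1 (12.4%), AGGTCA in 1 (14.0%) and the E-box CANNTG, not set in capitals, in 4 (66.2%). The AP-1 site TGANTCA (6.75% of all) and the grainyhead core ACCGGT (1.86%), bound by factors that act in keratinocytes, were in 0 of the 7 windows. These are matches of letters, and they do not show which factors bind there.

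The elongases of very long fatty acids, *Elovl1* and *Elovl4*, had the highest mean CPM of the 9 genes in WT. *Elovl1* (chr4:118428093-118432953) measured 213, 311 and 241 CPM in WT samples 1, 2 and 3 and 58.9, 60.4 and 59.4 CPM in the KO samples, a log2 fold change of -2.10 (SE 0.118). For *Elovl4* (chr9:83778692-83806277), which carries chains to lengths found in few tissues besides skin, eye, brain and testis, the WT samples gave 191, 255 and 198 CPM and the KO samples 15.5, 16.1 and 16.0 CPM, a log2 fold change of -3.76 (SE 0.107). In both genes the KO samples lay close together, with coefficients of variation of 1.29% and 1.90%, while WT sample 2 stood above the other WT samples. The ratio of *Elovl1* to *Elovl4* counts differed between genotypes without overlap, at 1.12, 1.22 and 1.21 in WT and 3.80, 3.76 and 3.71 in KO. Annotated exons of *Elovl1* and of *Cdc20*, a mitotic gene on the opposite strand, share 53 bp. *Cdc20* had 3412 to 4837 counts per sample, and since the strand setting of the counting is not stated, reads of the shared bases cannot be assigned with certainty.

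*Cers3* (chr7:66743504-66823691), the ceramide synthase that accepts the longest acyl chains, measured 32.5, 48.3 and 35.1 CPM in WT and 1.24, 1.39 and 1.14 CPM in KO (log2 fold change -4.94, SE 0.170). The KO levels rest on 116, 132 and 111 counts, well above the 3 counts that a count of 0 allows. *Pnpla1* (chr17:28858411-28890309), the transacylase that makes the linoleate ester, was present at 26.4, 44.6 and 33.3 CPM in WT and 2.42, 2.30 and 2.41 CPM in KO (log2 fold change -3.87, SE 0.182). The genotypes did not overlap in either gene, and WT sample 2 was again the highest. An antisense gene, *Pnpla1os*, overlaps 644 bp of *Pnpla1* exons but had at most 7 counts in any sample.

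The lamellar body stage was represented by a glucosyltransferase and a transporter that behaved differently. *Ugcg* (chr4:59189257-59222833) measured 81.7, 88.5 and 79.0 CPM in WT and 58.3, 58.9 and 61.6 CPM in KO (log2 fold change -0.48, SE 0.048). *Abca12* (chr1:71242276-71414910), which fills lamellar bodies with lipid, measured 94.1, 139 and 104 CPM in WT and 3.74, 4.43 and 5.06 CPM in KO (log2 fold change -4.67, SE 0.164). The WT means of these genes were 83.1 ± 4.87 and 112 ± 23.6 CPM (SD, n = 3), and the KO means were 59.6 ± 1.75 and 4.41 ± 0.657 CPM.

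The enzymes that oxidize the linoleate of acylceramides showed unequal falls. The lipoxygenase *Alox12b* (chr11:69156989-69169792) fell from 136, 226 and 163 CPM in WT to 8.59, 9.64 and 9.34 CPM in KO (log2 fold change -4.25, SE 0.176). *Aloxe3* (chr11:69125896-69149115), which converts the hydroperoxide made by ALOX12B into an epoxyalcohol, had 84.5, 134 and 97.7 CPM in WT and 20.8, 17.4 and 18.3 CPM in KO (log2 fold change -2.48, SE 0.154). *Sdr9c7* (chr10:127898518-127911761), the dehydrogenase of the next step, had 58.2, 101 and 71.0 CPM in WT and 3.36, 3.80 and 4.19 CPM in KO (log2 fold change -4.34, SE 0.202). Per count of *Alox12b*, the WT samples held 0.623, 0.593 and 0.599 counts of *Aloxe3* and the KO samples 2.42, 1.81 and 1.96. The order of the pair in counts was thus opposite in the genotypes. Per kb of exon it was not, since mean CPM per kb was higher for *Alox12b* in WT (71.9 against 16.5) and in KO (3.78 against 2.95).

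*Aloxe3* and *Alox12b* are neighbors on chromosome 11 in the same orientation, with 7873 bp between them. Within 100000 bp on either side, none of the other tested genes was called lower. *Alox8*, a lipoxygenase gene that follows *Alox12b*, had a WT mean of 1.04 ± 0.350 CPM and a KO mean of 0.904 ± 0.275 CPM (SD, n = 3; log2 fold change -0.20, adjusted p = 0.592, edgeR). *Hes7*, on the other side next to *Aloxe3*, had a log2 fold change of -0.13 (adjusted p = 0.760, edgeR). A weakly counted gene, *9130213A22Rik*, named here after its value was seen, was called higher in KO with a log2 fold change of 0.71 (adjusted p = 0.0485, edgeR).

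Levels were compared between genes as CPM per kb of exon. In WT, *Elovl1* led at 93.7 ± 18.5 (SD, n = 3), followed by *Alox12b* at 71.9 ± 19.0 and *Elovl4* at 71.0 ± 11.6, and the spread of these 3 overlapped. *Sdr9c7* at 25.2 ± 7.19, *Aloxe3* at 16.5 ± 3.99 and *Ugcg* at 15.9 ± 0.935 followed, and each of these differed from the next by less than the sum of their SDs. *Cers3* (11.9 ± 2.61) lay below them, and *Abca12* (7.59 ± 1.59) and *Pnpla1* (7.18 ± 1.90), whose spread overlapped, came last. All genes were measured in the same samples, so overlap of these SDs does not settle the order of genes within a sample. In KO, *Elovl1* stayed first at 21.9 ± 0.283, with *Ugcg* next at 11.4 ± 0.335 and then *Elovl4* at 5.24 ± 0.0998. *Alox12b* (3.78 ± 0.224), *Aloxe3* (2.95 ± 0.276), *Sdr9c7* (1.25 ± 0.137), *Pnpla1* (0.491 ± 0.0139), *Cers3* (0.385 ± 0.0377) and *Abca12* (0.298 ± 0.0443) followed, each further from the next than the sum of their SDs. In shares of all counts of the 9 genes, *Ugcg* made up 6.57% to 8.91% in WT and 33.7% to 34.7% in KO, and *Elovl1* 23.1% to 23.6% in WT and 33.5% to 34.6% in KO.

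The WT samples were spread more widely than the KO samples in these genes. WT sample 2 was the highest and WT sample 1 the lowest of the WT samples in 8 of the 9 genes, an order seen in 25.5% of all tested genes. In the remaining gene, *Ugcg*, sample 2 was also highest but sample 3 was lowest. The level in WT sample 2 was 1.08 (*Ugcg*) to 1.73 (*Sdr9c7*) times that in WT sample 1, with a median of 1.49, while the median over all genes with a mean of at least 1 CPM was 1.01. The coefficient of variation among WT samples was 5.86% for *Ugcg* and 16.3% to 28.5% for the other 8 genes, and among KO samples it was 1.29% (*Elovl1*) to 14.9% (*Abca12*). The medians over genes with a mean of at least 1 CPM were 4.66% in WT and 4.44% in KO. Without WT sample 2, the log2 fold changes of *Cers3* and *Elovl1*, the largest and smallest among the 8 genes called, were -4.75 and -1.93.

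**Figure D2:**
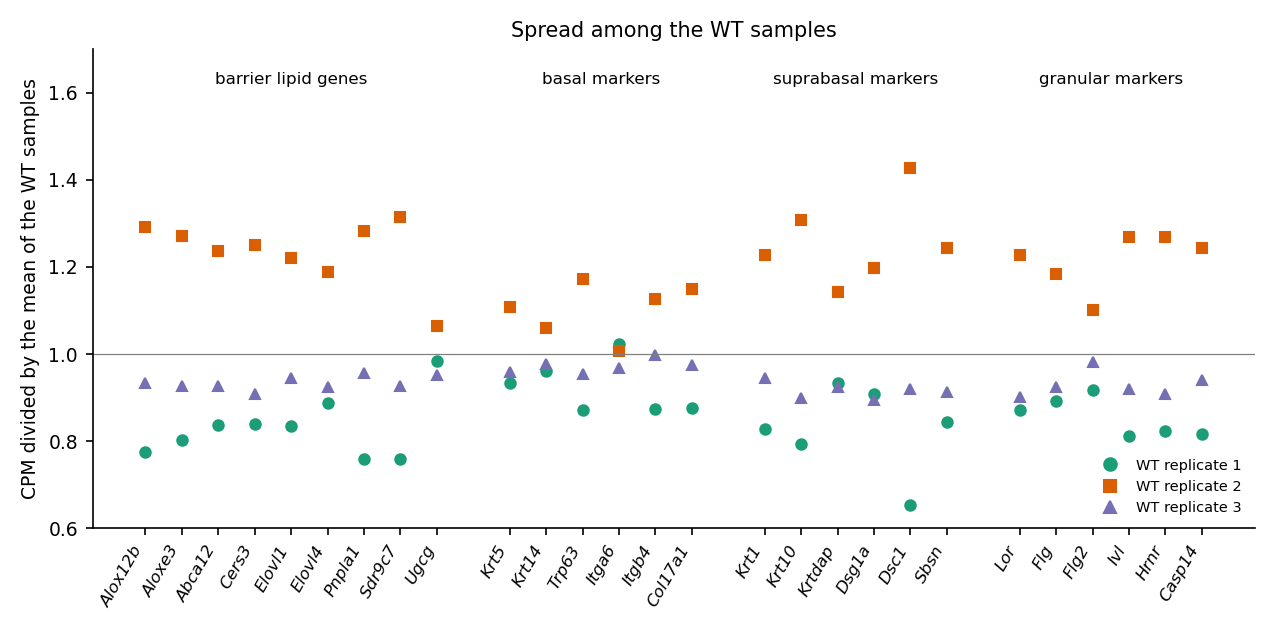
CPM of each WT sample divided by the mean of the 3 WT samples, for the 9 barrier lipid genes and for keratinocyte markers of the basal, suprabasal and granular layers, with 1.0 as a gray line. WT replicate 2 (squares) is the highest for all 9 barrier lipid genes and for every marker except *Itga6*, and WT replicate 1 (circles) is the lowest for 8 of the 9.

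Keratinocyte markers moved with the barrier lipid genes, both between genotypes and among WT samples. Of 18 such markers, 16 were called lower in KO and 0 higher, beside 8.39% and 8.31% of all tested genes. WT sample 2 was the highest and sample 1 the lowest in 15, an order seen in 25.5% of all tested genes. The summed level of 6 markers of the basal layer ran from 1620 to 1882 CPM in WT and from 488 to 569 CPM in KO, and 4 of the 6 were called lower. For 6 markers of the suprabasal layers the sum was 14448 to 21886 CPM in WT and 335 to 506 CPM in KO, and for 6 of the granular layer, where acylceramides are made, it was 3840 to 5557 CPM in WT and 394 to 455 CPM in KO, and all 12 were called lower. None of the 18 was at 0 in any sample, although the samples are labelled only as leg muscle. The part of keratinocyte content in the differences of the 9 genes was not tested.

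Of the markers of other tissues, 0 were called lower in KO, beside 8.39% of all tested genes called lower and 8.31% called higher. Of 8 skeletal muscle markers, 5 were called higher in KO and 0 lower, with summed levels of 16093 to 18001 CPM in WT and 34176 to 41100 CPM in KO, so that the labelled tissue was clearly present in each sample. All 7 adipocyte markers were called higher, from 232 to 285 CPM in sum in WT to 734 to 864 CPM in KO, and their sum was lowest in WT sample 2. Of 6 fibroblast markers, 0 were called in either direction (sums of 28480 to 31462 CPM in WT and 34667 to 35803 CPM in KO). In 3 of the 6 fibroblast markers, WT sample 2 was the highest and sample 1 the lowest, the order of most barrier lipid genes. This order was seen in 1 of the 8 muscle markers, 0 of the 7 adipocyte markers and 25.5% of all tested genes. The part of these tissues in the results was likewise not tested.

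Set against the basal keratins *Krt5* and *Krt14*, the 9 genes fell into separate ranges. These 2 keratins themselves kept 25.7% and 16.6% of their WT means in KO. Of the other basal markers, *Col17a1* kept 30.6%, *Trp63* 39.3% and *Itgb4* 68.5%, and *Itga6* stood at 106%. The ranges therefore depend on the basal markers chosen. Per 1000 counts of *Krt5* and *Krt14*, the KO mean of *Cers3* was 0.144 times the WT mean and that of *Abca12* 0.176 times. For *Sdr9c7* the ratio of means was 0.222, for *Alox12b* 0.235, for *Pnpla1* 0.304 and for *Elovl4* 0.328. *Aloxe3* had 62.5, 85.3 and 70.5 counts per 1000 in WT and 54.6, 55.5 and 62.3 in KO, a ratio of means of 0.790, with the highest KO sample just under the lowest WT sample. *Elovl1* had 177 ± 20.5 counts per 1000 in WT and 183 ± 25.3 in KO (SD, n = 3), and these overlapped. *Ugcg* was higher in KO on this scale, with 58.0 ± 2.14 in WT and 184 ± 28.7 in KO.

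**Figure D3:**
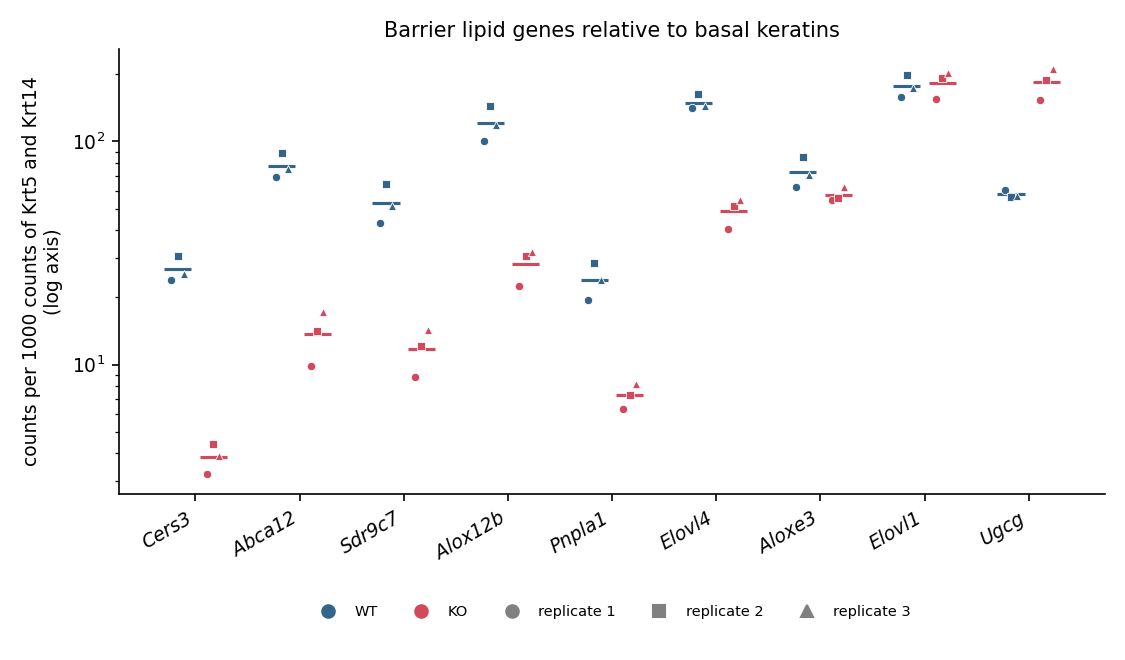
Counts of each barrier lipid gene per 1000 counts of *Krt5* and *Krt14* together (log axis), with WT in blue, KO in red, the replicate number by symbol and the mean of 3 samples as a bar. From *Cers3* (ratio of KO to WT means 0.144) to *Elovl4* (0.328) the KO samples lie below WT, *Aloxe3* nearly touches, *Elovl1* overlaps and *Ugcg* lies above.

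The picture turned with *Krt1* and *Krt10*, keratins of the differentiating layers, as the reference. Per 1000 counts of *Krt1* and *Krt10*, all 9 genes had higher ratios in KO, from 1.79 times the WT mean for *Cers3* to 38.6 times for *Ugcg*. These 2 keratins kept 2.25% and 1.36% of their WT means in KO, less than *Cers3* with 3.25%, the lowest of the 9 genes. Of the other suprabasal markers, *Dsc1* kept 0.958%, *Dsg1a* 5.02%, *Krtdap* 7.32% and *Sbsn* 7.63%. The direction for the genes with the steepest falls thus depends on the suprabasal markers chosen. Per 1000 counts of 6 granular markers (*Lor*, *Flg*, *Flg2*, *Ivl*, *Hrnr* and *Casp14*), 6 genes had lower KO means, from 0.340 times for *Cers3* to 0.767 times for *Elovl4*, and *Aloxe3* (1.89), *Elovl1* (2.43) and *Ugcg* (7.35) had higher ones. *Cers3* was at the low end and *Ugcg* at the high end with each of the 3 references. Each reference divides all 9 genes of a sample by the same count, so this shared order is no separate result. *Alox12b* per 1000 granular marker counts was 35.4, 40.6 and 39.7 in WT, a narrower spread than in CPM. *Ugcg* went the other way, at 21.3, 15.9 and 19.2 in WT, a wider spread than in CPM.

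Beyond the 9 genes, 49 other genes of the barrier lipid pathway were tested. Of these, 25 (51.0%) were called lower and 3 (6.12%) higher in KO, beside 8.39% and 8.31% of all tested genes. Their median log2 fold change was -0.62, while that of all tested genes was -0.0041. *Sts*, also on the list, was not analysed here. This list, like the marker and family lists, was chosen with earlier results of these data known. Its calls and p-values are therefore no independent support. Among 20 genes for precursors (sphingoid bases, fatty acid activation and the elongation cycle), 6 were called lower and 3 higher (median -0.31), among 13 genes that hydroxylate, process or turn over ceramides 7 were called lower and 0 higher (median -0.60), and among 16 genes of the envelope and lamellar bodies 12 were called lower and 0 higher (median -3.77).

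Among the precursor genes, *Sptlc3*, a subunit of serine palmitoyltransferase, fell from 26.6 ± 8.26 to 0.760 ± 0.114 CPM (SD, n = 3; log2 fold change -5.13, adjusted p = 2.81e-07, edgeR). The obligate subunit *Sptlc1* fell less, from 43.6 to 22.6 CPM (log2 fold change -0.95), as did *Sptssa*, a small activating subunit (-0.72), and *Slc27a4*, a fatty acid transport protein needed for the barrier (-1.16, adjusted p = 2.97e-06, edgeR). The dehydratases of the elongation cycle went both ways. *Hacd3* and *Hacd2* fell, with log2 fold changes of -0.66 and -0.62, and *Hacd1*, the form found mainly in muscle, rose from 49.7 to 87.2 CPM (0.81, adjusted p = 8.79e-05, edgeR). *Hacd2* was no longer called without WT sample 2 (-0.54) or without KO sample 1 (-0.58). *Acacb*, the acetyl-CoA carboxylase of heart and muscle, rose from 17.2 ± 1.16 to 47.3 ± 4.16 CPM (1.46, adjusted p = 4.55e-07, edgeR). The other gene called higher, *Fa2h*, the fatty acid 2-hydroxylase, was weakly counted, with a WT mean of 0.236 ± 0.0427 CPM and a KO mean of 1.18 ± 0.129 CPM, and is named after its value was seen.

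Of the genes that act on ceramides, *Cyp4f39*, whose product puts the hydroxyl group on the far end of the acyl chain, fell from 27.6 ± 8.16 to 0.817 ± 0.164 CPM (SD, n = 3; log2 fold change -5.07, adjusted p = 2.87e-07, edgeR). The epidermal ceramidase *Acer1* fell from 25.9 to 1.10 CPM (-4.56, adjusted p = 1.39e-08, edgeR), the glycolipid transfer protein *Gltp* from 354 to 55.6 CPM (-2.67), and the sphingomyelinases *Smpd3* and *Smpd1* and the ceramidase *Asah2* had log2 fold changes of -1.80, -1.27 and -1.02. *Abhd5*, the partner of PNPLA1, measured 29.1 ± 3.23 CPM in WT and 23.1 ± 0.650 CPM in KO (-0.34) and was under the fold threshold.

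In the group of envelope and lamellar body genes, the transglutaminases *Tgm3* and *Tgm1*, which cross-link the cornified envelope, fell from 43.9 to 1.31 CPM (log2 fold change -5.06, adjusted p = 8.89e-08, edgeR) and from 73.3 to 3.48 CPM (-4.40, adjusted p = 1.36e-07, edgeR). The secreted phospholipase *Pla2g2f* fell from 199 to 9.25 CPM (-4.43), the transcription factor *Grhl3* had a log2 fold change of -4.38, the epoxide hydrolase *Ephx3* of -4.34 and the lipase *Lipk* of -4.27.

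**Figure D4:**
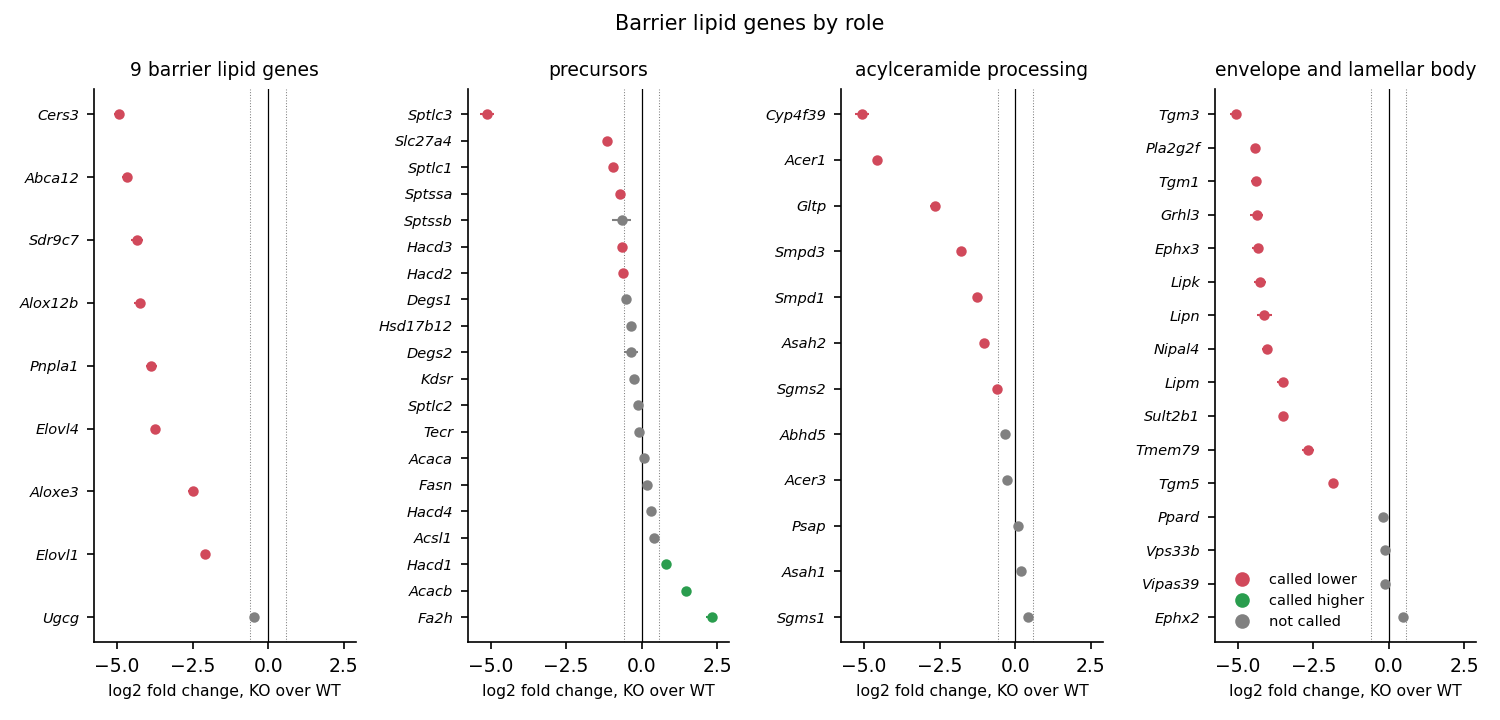
Log2 fold change of KO over WT for the 9 barrier lipid genes and for the other genes of the pathway by role, with SE bars, a solid line at 0 and dotted lines at a fold change of 1.5. Red points were called lower, green points higher and gray points not called. 1 gene of the ceramide group is counted in the text and not plotted. The envelope group holds 12 red points of 16, and the precursor group 6 red and 3 green of 20.

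Relatives of the 9 genes were examined to see how far the falls extended within gene families. Of 43 genes of the same families (for *Ugcg*, the galactosyltransferase *Ugt8a*, which was not called), 36 were tested. Of these, 7 (19.4%) were called lower and 4 (11.1%) higher, beside 8.39% and 8.31% of all tested genes. Their median log2 fold change was 0.11. Among the other ceramide synthases 0 of 5 were called, with log2 fold changes from -0.16 to 0.42, where *Cers3* had -4.94. *Cers2*, the widely expressed synthase for very long chains, had 2.82, 1.82 and 2.61 counts per count of *Cers3* in WT and 79.7, 70.8 and 86.6 in KO. The share of *Cers3* in the CPM per kb of its family was 18.3% to 25.3% in WT and 0.743% to 0.909% in KO. *Abca12* likewise made up 15.6% to 20.7% of its family in WT and 0.624% to 0.818% in KO, and of the 10 other ABCA genes tested 0 were called lower and 1, *Abca6* (log2 fold change 0.75), higher.

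The lipoxygenases and elongases had more than 1 gene that was called lower. *Alox12*, the platelet-type lipoxygenase that epidermis also expresses, fell from 21.1 to 5.08 CPM (log2 fold change -2.05, adjusted p = 1.47e-06, edgeR), and *Alox12e*, an epidermal lipoxygenase of the mouse, had a log2 fold change of -1.30. *Alox5*, the lipoxygenase of leukotriene synthesis, rose by 0.76 on the log2 scale. *Elovl7* fell from 42.2 to 5.64 CPM (-2.90, adjusted p = 1.74e-07, edgeR), and *Elovl3* rose (0.63). With libraries scaled by size alone, *Elovl3* was still higher (0.56) but under the fold threshold. *Elovl5* and *Elovl6* were not called, at 0.23 and -0.49. In the retinol type of short-chain dehydrogenases, the family of *Sdr9c7*, 3 of 5 tested genes were called lower, among them *Rdh1* (-3.37) and *Bdh1* (-1.80). In the patatin-like family, *Pnpla2*, the main triglyceride lipase of fat and muscle, rose from 19.4 to 56.5 CPM (1.54, adjusted p = 1.14e-06, edgeR), while *Pnpla1* stood at 24.2% to 33.7% of the family in WT and 1.46% to 1.77% in KO.

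**Figure D5:**
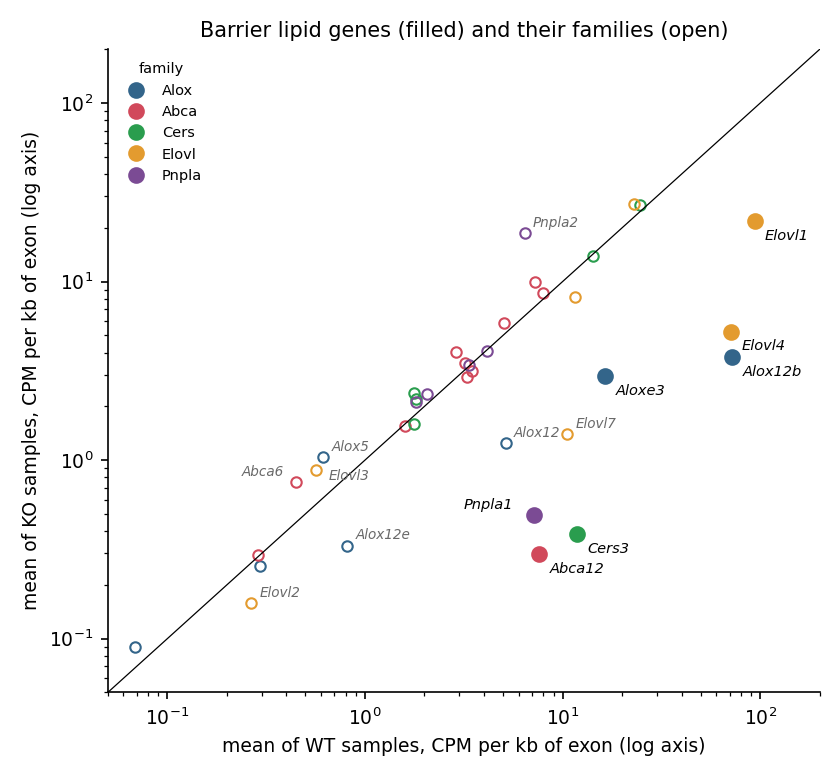
Mean CPM per kb of exon in WT (horizontal, log axis) and KO (vertical, log axis) for 7 of the barrier lipid genes (filled; *Sdr9c7* and *Ugcg* are not plotted) and other tested members of their families (open), with the family by color and the diagonal marking equal levels. The 7 filled points lie below the diagonal, *Pnpla2* lies above it, and open points below it include *Elovl7* and *Alox12*.

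For each gene, the gene with the most similar profile was sought among 15864 genes with a mean of at least 1 CPM, as the smallest Euclidean distance between centered log2 CPM values over the 6 samples. *Elovl1* was closest to *Hephl1* (distance 0.0538) and *Ugcg* to *Gng12* (0.0506). The nearest gene to *Alox12b* was *Ephx3* (0.158), which is itself in the envelope list, that to *Aloxe3* was *Fam83a* (0.115), and that to *Abca12* was *Tprg* (0.132). *Cers3* was nearest to *Ceacam19* (0.154), *Elovl4* to *Capns2* (0.143), *Pnpla1* to *Wnt7b* (0.187) and *Sdr9c7* to *Pof1b* (0.148). The median distance over all genes compared was 0.651 for *Ugcg* and 2.57 to 6.01 for the other 8 genes. All 6 samples enter these distances, which therefore hold both the difference between genotypes and the spread within them.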

How the data were processed

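Leg muscle of WT and *SYISL* KO fetuses was measured by RNA-seq, with 3 samples of each genotype. Per the submitters' processing notes, the authors used Trim Galore 0.6.6, HISAT2 2.2.1, the build mm10 and featureCounts 2.0.1, and they deposited raw counts per gene. The annotation and the strand setting are not given in the sources used here. Depth was 82054811 to 102233181 counts per sample. At this depth 3 counts, the limit that a count of 0 allows, equal 0.0293 to 0.0366 CPM, for counting error only.

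Gene positions and exon lengths came from GENCODE M21, matched by Ensembl ID without version (55227 of 56262 genes found). Counts were analyzed in R 4.3.3 with edgeR 4.0.16 (filterByExpr, TMM factors, quasi-likelihood test on genotype, Benjamini-Hochberg adjustment over 22071 genes). CPM used TMM-scaled library sizes, and fold changes came from the quasi-likelihood fit. The log2 CPM values of the profile distances used a prior count of 2. DEGs needed a fold change over 1.5 and an adjusted p under 0.05. Named genes are all 9 barrier lipid genes, up to 6 DEGs per direction and group with a mean of at least 1 CPM, ordered by fold change, and others as stated. The values of 1 listed gene are left out here. The 9 genes, the gene lists and the motifs were chosen with earlier results of these data known. On simulated counts for this comparison (22071 genes, 200 changed), edgeR recovered 200, DESeq2 200 and limma-voom 199, and they called 12, 7 and 12 unchanged genes. The changed genes all had a mean of at least 1 CPM and changes of at least 2-fold. Recovery of weaker genes and smaller changes was therefore not examined. Same-numbered WT and KO samples were not treated as paired. Replicates differed beyond counting noise (chi-square per gene, on average, 5.22 to 36.2 between any pair).

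Alternatives were RLE, upper-quartile and library size scaling, DESeq2 1.42.0, limma-voom (limma 3.58.1), other filters, a replicate block, other fold thresholds and leaving out each sample.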

Additional observations from a re-analysis of the deposited data

How the results depend on the processing

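The 9 barrier lipid genes were chosen on this difference, so their values under the alternatives are a description and no support. Of 16 alternatives, only the one with no fold threshold changed their count of calls, from 8 to 9. Leaving out each sample in turn gave log2 fold changes from -5.05 to -4.75 for *Cers3*, -2.21 to -1.93 for *Elovl1* and -0.51 to -0.43 for *Ugcg*. Among 288 counts of calls over the gene lists, 283 were equal to the reported count or within 1.5 times of it. Many of these compared 0 with 0. With no fold threshold, the other barrier lipid genes called higher numbered 8 instead of 3, the same-family genes called higher 15 instead of 4, the skeletal muscle markers called lower 1 instead of 0 and the fibroblast markers called higher 5 instead of 0. With a fold change over 2, the same-family genes called higher numbered 1 instead of 4. For single genes, 595 of 608 comparisons kept their direction and side of the threshold, 12 lost the call, 1 gained it and 0 reversed. Both tallies include the 9 chosen genes. *Hacd2* lost its call with upper-quartile factors (-0.55), and a fold change over 2 removed *Sptlc1*, *Sptssa*, *Hacd3*, *Hacd2*, *Hacd1*, *Alox5*, *Abca6* and *Elovl3*.

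No source ties samples by replicate number, and same-numbered WT and KO samples deviated from their group means with correlations of -0.20, -0.13 and 0.047 (1 of 6 samples correlated best with their own number). With the replicate number as a block, 8 of the 9 genes were called lower, as were 25 other barrier lipid genes, and no count over the lists changed. Over all genes, calls were 1852 lower and 1835 higher with TMM, 1777 and 1744 with the block, 2088 and 1528 with library size alone and 1673 and 2188 with upper-quartile factors. The median log2 fold change of all genes was -0.0041 with TMM, -0.073 with library size alone and 0.064 with upper-quartile factors.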
